A study of Mus musculus with 20 samples.

Results

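The genes described here are 10 integrin subunits, taken as a list of symbols: *Itgam*, *Itgax*, *Itgal* and *Itgb2* of the leukocyte integrins, *Itgav*, *Itgb5*, *Itgb3* and *Itgb8* of the αv integrins, and *Itgb1* and *Itga6*. All 10 were found among the 39017 gene identifiers counted, and 17 other integrin subunit genes were followed beside them.

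Integrins are adhesion receptors made of an α and a β chain, and the pair decides which ligand a cell can hold. The leukocyte integrins share the β2 chain and bind complement fragments, fibrinogen and the ICAM proteins, the αv integrins bind fibronectin, vitronectin, osteopontin and the latent form of TGF-β, and α6 with β1 is a laminin receptor. In brain, αMβ2 (CD11b with CD18) is the complement receptor by which microglia take up C3-coated material, and αvβ8 on glia is known for releasing active TGF-β from its latent complex.

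The study asked how microglia and astrocytes respond to traumatic brain injury. Adult male C57BL/6 mice (C57BL/6J in the published methods) aged 3 to 4 months underwent lateral fluid percussion injury (FPI) or a sham procedure. In FPI a pulse of fluid strikes the exposed dura, and the sham procedure is without the pulse. At day 7 the ipsilateral (left) forebrain was dissociated, and microglia were sorted as CD11b+ cells with intermediate CD45 and astrocytes by the surface antigen ACSA-2. Total RNA was made into stranded libraries, 5 per cell type and condition (sham microglia, FPI microglia, sham astrocytes, FPI astrocytes), 20 in all, and no group carried a transgene or a drug treatment in the labels. *Itgam* encodes CD11b, the antigen on which microglia were sorted, so its difference between the cell types is not a finding.

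The values are counts of reads per gene as deposited. Sham microglia held 5623349 to 13110857 counts per library (median 8188128), FPI microglia 6890710 to 8396868 (8054415), sham astrocytes 7998479 to 10917112 (9300923) and FPI astrocytes 6470553 to 10194999 (7878739). Levels within a gene are given in CPM, counts relative to each library's total after TMM scaling over the 20 libraries. Levels of different genes are compared only in RPKM, the same value divided by the gene's merged exon length in kilobases. At this depth *Itgam* rested on 72907 counts in sham microglia but on 21 in sham astrocytes, *Itgb2* on 13 there and *Itgax*, *Itgal* and *Itgb8* on 127 or fewer in at least 1 group, so low levels carry wide errors.

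Some libraries stand apart from their group by name or by value. FPI astrocyte library 5 is named with the suffix of a microglia library and with the number of the animal of FPI astrocyte library 2. Its title and cell type label place it with the astrocytes. Its 12 astrocyte markers summed to 17460 CPM and its 13 microglial markers to 255 CPM. In FPI microglia libraries the microglial markers summed to between 20188 and 31783 CPM. The astrocyte fold changes of the listed integrins, ligands and adaptors are given with and without FPI astrocyte library 5, while the marker lists were read with it only. Microglia libraries 4 and 5 of both conditions carry the letters J-A in their names, whose meaning the labels do not give, and results are given for libraries 1 to 3 and for libraries 4 and 5 where the call or the direction turns between them. Astrocyte libraries 4 and 5 of both conditions also differ from libraries 1 to 3 in several genes below. Judged by number, 3 animals (2 sham, 1 FPI) each provided microglia and astrocytes, and the fits took those libraries as independent. No pair of libraries of a group was as alike as sampling noise would allow.

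The labels were checked against marker lists. The 13 microglial markers summed to 28031 ± 1936 CPM (SD, n = 5) in sham microglia and 25405 ± 4370 in FPI microglia, led by *Csf1r*, against 141 ± 30.4 and 213 ± 58.6 in sham and FPI astrocytes, where *Sall1* led. The 12 astrocyte markers summed to 25091 ± 10043 CPM in sham astrocytes and 22711 ± 8515 in FPI astrocytes, led by *Slc1a2*, against 328 ± 55.8 and 463 ± 171 in sham and FPI microglia. The astrocyte libraries also held oligodendrocyte markers (7993 ± 6536 CPM in sham, 8240 ± 3348 in FPI) and mural markers (2365 ± 1373 and 2816 ± 2147, led by *Rgs5*). Microglia libraries are thus microglial by their markers, and the astrocyte libraries hold astrocyte markers together with those of oligodendrocytes and of vessel walls, so a subunit counted there is not assigned to astrocytes alone.

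Per length, *Itgb5* had the highest level of the 10 genes in microglia. Its mean was 567 ± 50.7 RPKM (SD, n = 5) in sham and 624 ± 51.0 in FPI microglia, followed by *Itgam* (323 ± 16.0 and 367 ± 49.1 RPKM) and *Itgb2* (187 ± 14.6 and 218 ± 28.7 RPKM). Then came, for sham and FPI in turn, *Itgb1* (75.97, 75.99), *Itga6* (61.5, 64.2), *Itgav* (33.8, 30.9), *Itgb3* (23.3, 20.3), *Itgax* (5.15, 14.2), *Itgal* (0.292, 0.640) and *Itgb8* (0.227, 0.285), in RPKM. Neighbours in that order whose libraries overlapped were *Itgb1* and *Itga6* and *Itgal* and *Itgb8* in both conditions, and *Itgb3* and *Itgax* after FPI. In sham astrocytes the order in RPKM was *Itgb5* (56.6), *Itgb1* (45.5), *Itgav* (34.9), *Itgb8* (26.2), *Itga6* (15.1), *Itgb3* (0.7101), *Itgam* (0.107), *Itgb2* (0.0943), *Itgal* (0.0229) and *Itgax* (0.0210). There the only neighbours with separate ranges were *Itga6* and *Itgb3*. In FPI astrocytes *Itgb1* (53.9 RPKM) and *Itgb5* (53.8) led, followed by *Itgav* (29.4), *Itgb8* (22.9), *Itga6* (14.2), *Itgam* (1.32), *Itgb2* (0.901), *Itgb3* (0.673), *Itgal* (0.0718) and *Itgax* (0.0689), with separate ranges between *Itgb5* and *Itgav* and between *Itga6* and *Itgam* alone.

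**Figure D1:**
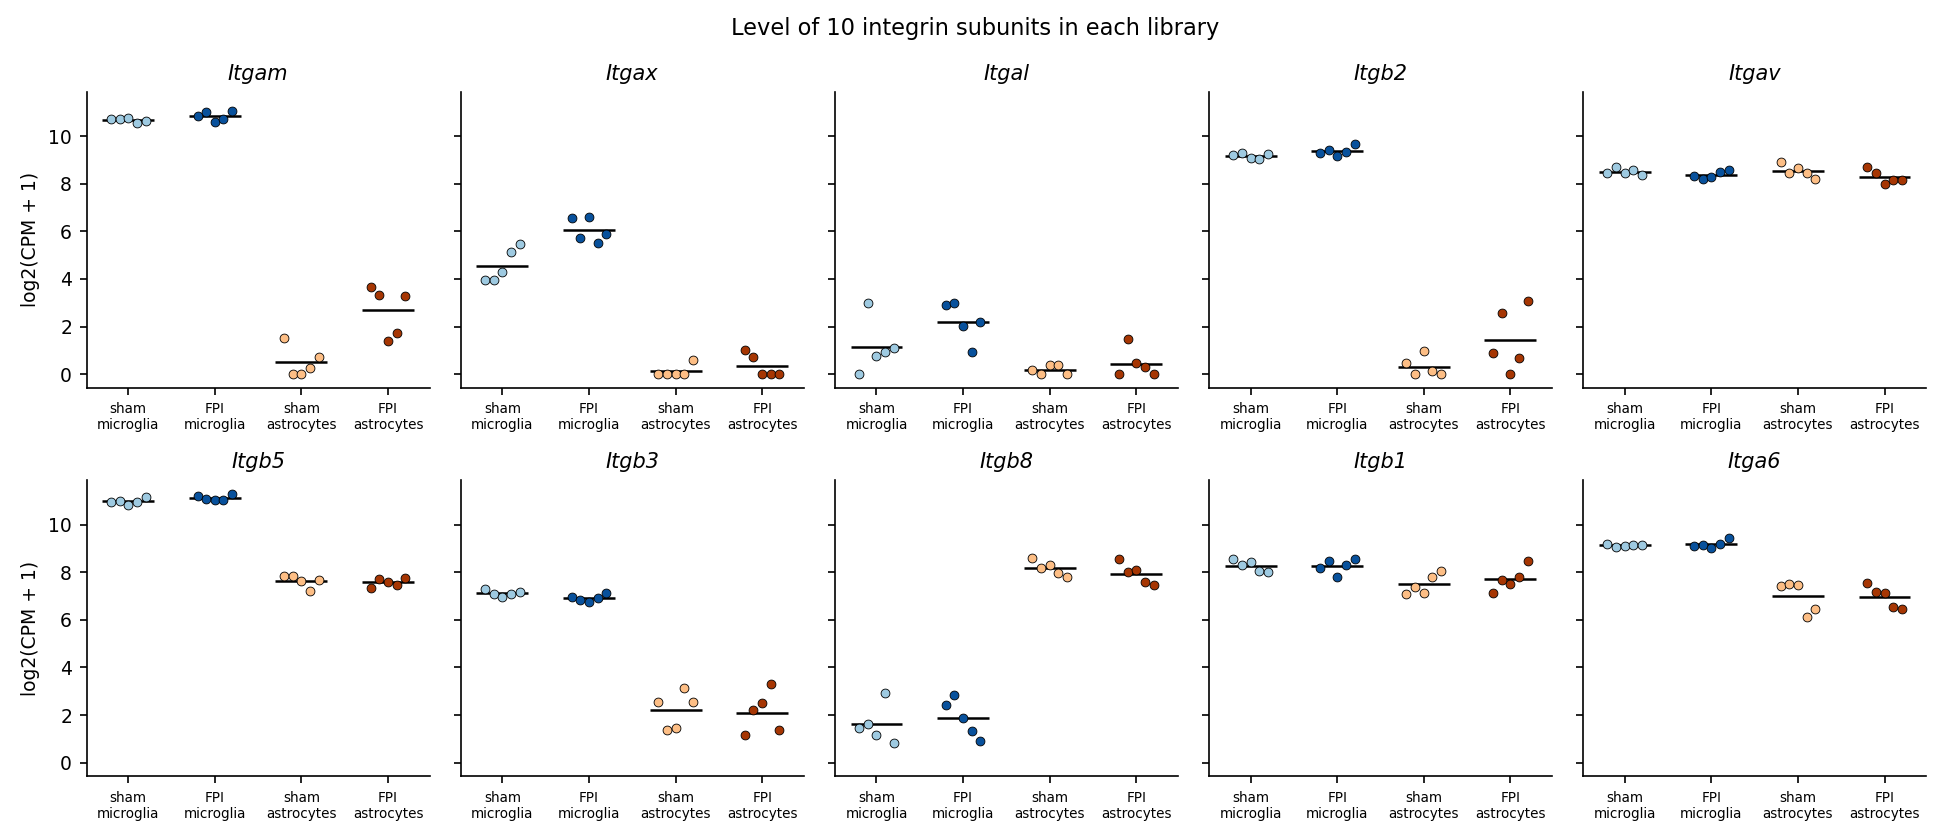
Level of each of the 10 subunits as log2(CPM + 1) in the 20 libraries; points are libraries and lines are group means. The β2 family genes *Itgam* and *Itgb2* lie far lower in astrocytes than in microglia, *Itgb8* lies high in astrocytes only, and *Itgav* lies at the same height in all 4 groups.

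The cell types were compared over all 20 libraries with edgeR's quasi-likelihood test, microglia minus astrocytes averaged over sham and FPI. A gene is called where its Benjamini-Hochberg adjusted p is below 0.1 and its absolute log2 fold change above 0.6. Of the 10 listed subunits 8 were called higher in microglia and 1, *Itgb8*, higher in astrocytes, while over all 15077 tested genes 64.2% were called, 27.1% higher in microglia and 37.2% higher in astrocytes. The libraries of the cell types did not overlap for 7 of the 10, against 37.5% of all tested genes. The list was drawn up from integrins known in microglia or astrocytes, so those shares are not read as a property of it. In such bulk RNA, fewer cells holding a transcript and less of it per cell cannot be told apart, here and in what follows.

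Beside *Itgam* (log2 fold change 9.90, SE 0.47), its partner *Itgb2* differed by 9.44 (SE 0.54, edgeR adjusted p = 1.24e-12) and *Itgax* by 7.71 (SE 0.52, edgeR adjusted p = 1.52e-11), both with every microglia library above every astrocyte library. *Itgb3* was 4.97 higher (SE 0.31, edgeR adjusted p = 4.71e-12) and *Itgb5* 3.43 higher (SE 0.11, edgeR adjusted p = 2.39e-16), but at very different levels in astrocytes. There *Itgb5* stood at 9.97% of its sham microglia mean in sham and 8.62% of its FPI microglia mean in FPI, while *Itgam* and *Itgb2* stood at 0.0332% and 0.0505% in sham. *Itga6* was 2.098 higher in microglia (SE 0.18, edgeR adjusted p = 7.13e-10), and *Itgal*, with few counts in either cell type, 3.34 higher (SE 0.82, edgeR adjusted p = 0.00101) with overlapping libraries. *Itgb8* went the other way, with a log2 fold change of -6.56 (SE 0.36, edgeR adjusted p = 5.68e-13). *Itgav*, the α chain that *Itgb5*, *Itgb3* and *Itgb8* share, did not differ detectably: its log2 fold change was 0.01 (95% interval -0.20 to 0.23, edgeR adjusted p = 0.924).

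**Figure D2:**
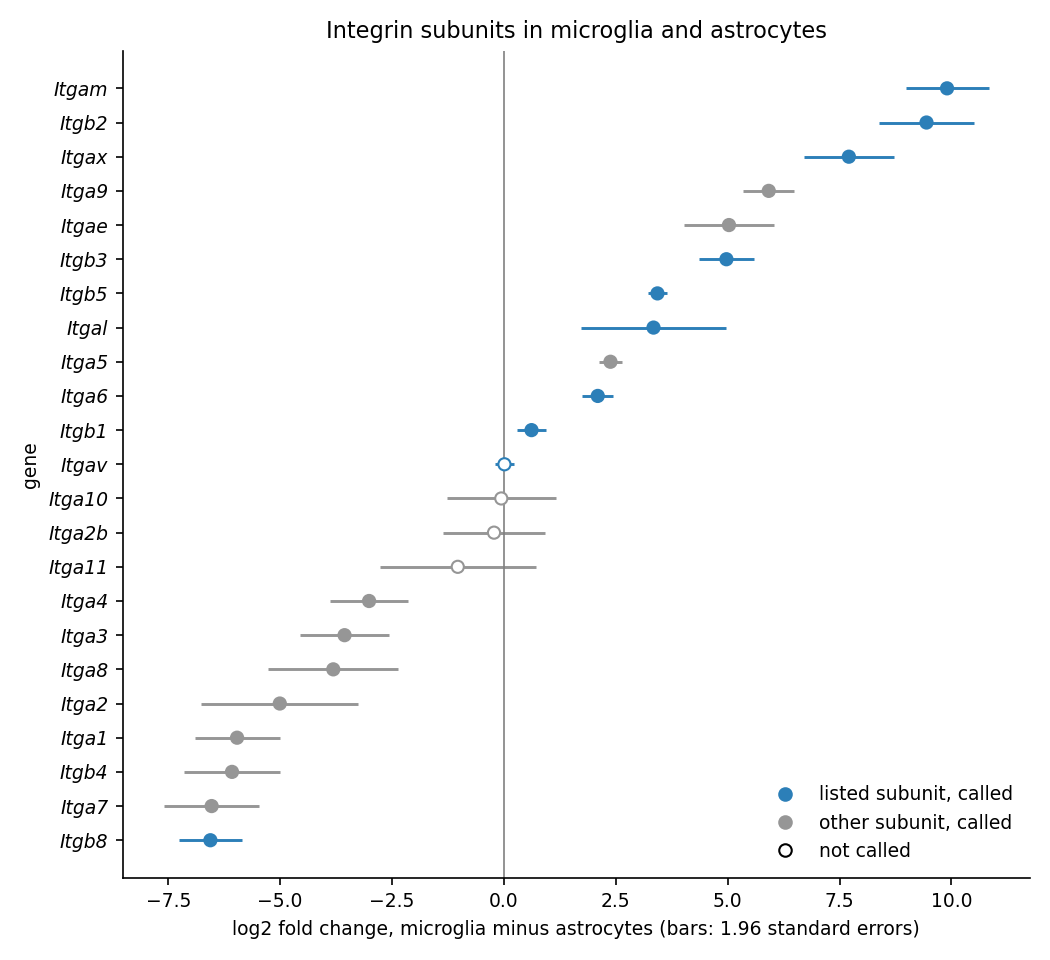
Log2 fold change, microglia minus astrocytes, of the 23 integrin subunits that could be tested. Bars are approximate 95% intervals, blue marks the listed subunits, grey the others, and open points are not called. *Itgam*, *Itgb2* and *Itgax* lie farthest to the microglial side, and *Itgb8*, *Itga7*, *Itgb4* and *Itga1* farthest to the astrocyte side.

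Of the 17 other subunits 13 could be tested, and 3 were called higher in microglia and 7 higher in astrocytes, beside 27.1% and 37.2% of all tested genes. The 3 were *Itga9* (log2 fold change 5.92), *Itgae* (5.03) and *Itga5* (2.38). The 7 were *Itga7* (-6.53), *Itgb4* (-6.08), *Itga1* (-5.96), *Itga2* (-5.01), *Itga8* (-3.81), *Itga3* (-3.56) and *Itga4* (-3.01). *Itga2b*, *Itga10* and *Itga11* were not called. *Itgb6* had 0 counts in every library, which at this depth is not detectable, and *Itgad*, *Itgb7* and *Itgb2l* fell under the filter on low counts. Because the astrocyte libraries also hold mural and oligodendrocyte markers, which of their cells carried these chains was not tested.

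The effect of FPI was tested in each cell type alone, in edgeR, with the same thresholds. In microglia all 10 listed subunits passed the filter on low counts, and 1, *Itgax*, was called higher and 0 lower, against 2.35% of all 12143 tested genes called and 2.13% called higher. FPI and sham libraries did not overlap for 1 of the 10, again *Itgax*, against 3.43% of all tested genes. A single gene of 10 is too few to set the list apart from those shares. At an unadjusted p below 0.05 the count was 1, beside 1377 of all 12143 tested genes. DESeq2 also called 1, *Itgax*. The median log2 fold change of the 10 was 0.18, with 8 above 0 and 2 below, beside a median of -0.01 over all tested genes.

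In astrocytes 7 of the 10 could be tested, *Itgax*, *Itgal* and *Itgb2* having too few counts, and edgeR called 0 of them. It called 0.00728% of 13741 genes, which is 1 gene, *Ctss* (ENSMUSG00000038642, log2 fold change 4.52, edgeR adjusted p = 0.0798), so a count of 0 of 7 does not set the list apart. At an unadjusted p below 0.05 the count was 1, *Itgam*, beside 319 of all 13741 tested genes. *Itgam* was also the 1 listed subunit called by DESeq2. FPI and sham libraries overlapped for all 7, while 0.713% of all tested genes had no overlap, and the median log2 fold change was -0.05, beside -0.01 over all tested genes. Without FPI astrocyte library 5, edgeR called 0 listed subunits and 0 genes in all.

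**Figure D3:**
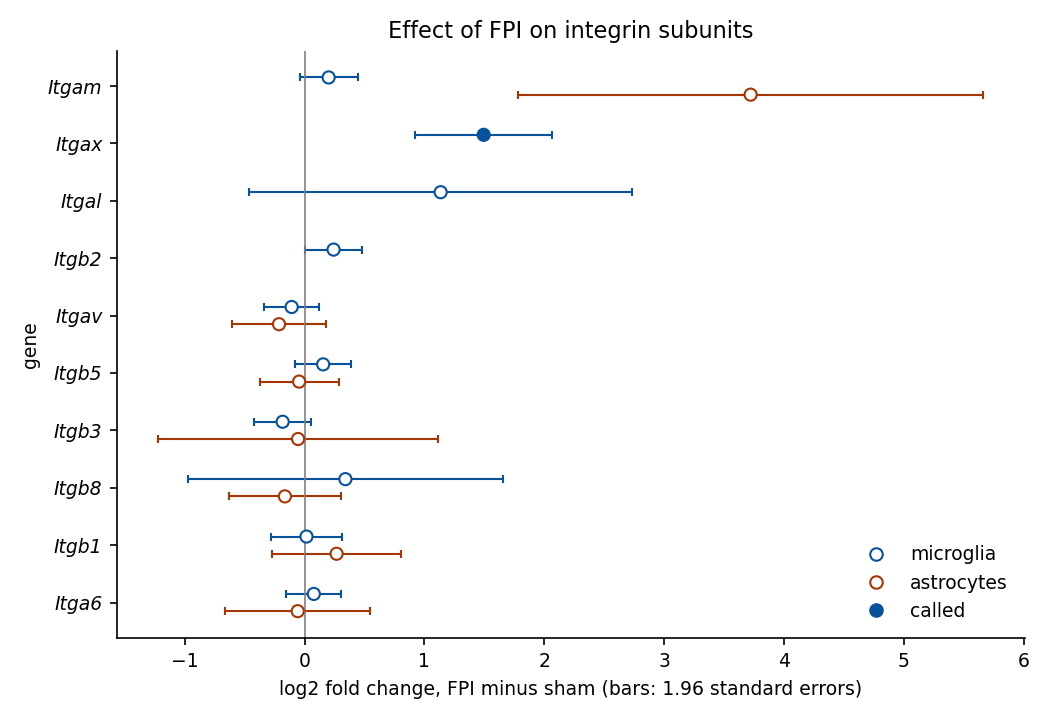
Log2 fold change, FPI minus sham, of the 10 subunits in microglia and of the 7 that could be tested in astrocytes. Bars are approximate 95% intervals and filled points are called. *Itgax* in microglia is the filled point, and *Itgam* in astrocytes lies far to the right with a wide bar and is not called.

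The α chains of the leukocyte integrins are clustered on chromosome 7. *Itgam* (ENSMUSG00000030786, chr7:128062640-128118491, GRCm38, plus strand) is followed by *Itgax* (ENSMUSG00000030789, chr7:128129547-128150657, plus strand) and by *Itgad*, and *Itgal* (ENSMUSG00000030830, chr7:127296260-127335138, plus strand) lies apart. The exons of *Itgam* overlap those of the annotated gene Gm49368 on the same strand, which has no count of its own here, so reads of the pair cannot be told apart. The 250 bases before the RefSeq starts of *Itgam* and *Itgax* (RefSeq, GRCm38.p6, plus strand) are shown because these neighbours share a partner chain and a cell type, and *Itgax* is the listed subunit called after FPI in microglia. Capitals mark GAGGAA or its reverse complement TTCCTC, the core letters of PU.1 sites, PU.1 being a transcription factor of the myeloid lineage. The windows are chr7:128062390-128062639 for *Itgam* and chr7:128129300-128129549 for *Itgax*.
Itgam: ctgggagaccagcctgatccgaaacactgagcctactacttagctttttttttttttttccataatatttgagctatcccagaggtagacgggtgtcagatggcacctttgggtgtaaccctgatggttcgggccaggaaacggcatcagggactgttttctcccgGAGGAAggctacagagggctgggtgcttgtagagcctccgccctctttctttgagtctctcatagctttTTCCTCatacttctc
Itgax: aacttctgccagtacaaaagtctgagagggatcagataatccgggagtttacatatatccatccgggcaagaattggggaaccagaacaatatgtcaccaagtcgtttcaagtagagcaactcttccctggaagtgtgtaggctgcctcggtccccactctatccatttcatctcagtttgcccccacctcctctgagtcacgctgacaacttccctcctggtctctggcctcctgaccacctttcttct
The *Itgam* window holds the letters 2 times, 84 and 15 bases before the start, 1 on each strand, and the *Itgax* window 0 times. On either strand they occur in 23.3% of 32851 such windows of mouse genes. The *Itgam* window also holds 1 match to GGGCGG (reverse complement CCGCCC, the GC box; 32.7% of windows) and 0 to TATAAA (reverse complement TTTATA, the TATA box; 12.4%), and the *Itgax* window 0 of both. Windows were at hand for 6 of the 10 genes, and among the others GAGGAA occurred in *Itgb1* (1 match) and *Itgav* (2) and in neither *Itgb5* nor *Itgb8*. *Itgal*, *Itgb2*, *Itgb3* and *Itga6* had no entry. A match is a run of letters only, and its use was not tested.

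*Itgax* encodes CD11c, an α chain that pairs with β2 and is well known on dendritic cells and on reactive microglia. It stood at 14.3, 14.4, 18.6, 33.5 and 42.7 CPM in sham microglia 1 to 5 and at 92.2, 50.8, 96.0, 45.1 and 57.3 CPM in FPI microglia 1 to 5. All FPI libraries lay above all sham libraries, with the closest values, 42.7 and 45.1 CPM, both in libraries named J-A. The mean rose from 24.7 ± 12.8 CPM (SD, n = 5) in sham to 68.3 ± 24.0 in FPI microglia, a log2 fold change of 1.49 (SE 0.29, 95% interval 0.92 to 2.07, 2.82-fold; edgeR adjusted p = 0.00702), rank 98 by p among 12143 genes. It was called in each of the 10 fits that left out 1 library, with log2 fold changes of 1.34 to 1.78 and edgeR adjusted p of 0.00161 to 0.0303.

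The size of the *Itgax* difference moved with the form of the library name. Sham libraries 1 to 3 had a mean of 15.8 CPM and sham libraries 4 and 5 of 38.1 CPM, while FPI libraries 1 to 3 had 79.7 CPM and FPI libraries 4 and 5 had 51.2 CPM. Sham values were thus lower, and 2 of 3 FPI values higher, in libraries 1 to 3 than in the J-A libraries. Within libraries 1 to 3 the log2 fold change was 2.32 (SE 0.25, edgeR adjusted p = 8.08e-05), and within libraries 4 and 5 it was 0.48 (SE 0.25, edgeR adjusted p = 0.486), which is not called. The difference between these estimates was not tested. With a term for the name form it was 1.59 (edgeR adjusted p = 0.00322), and in the fit of all 20 libraries it was 1.47 with an edgeR adjusted p of 0.196, not called. Over the 10 alternatives the adjusted p ran from 6.70e-08 to 0.486, and *Itgax* was called in 8.

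**Figure D4:**
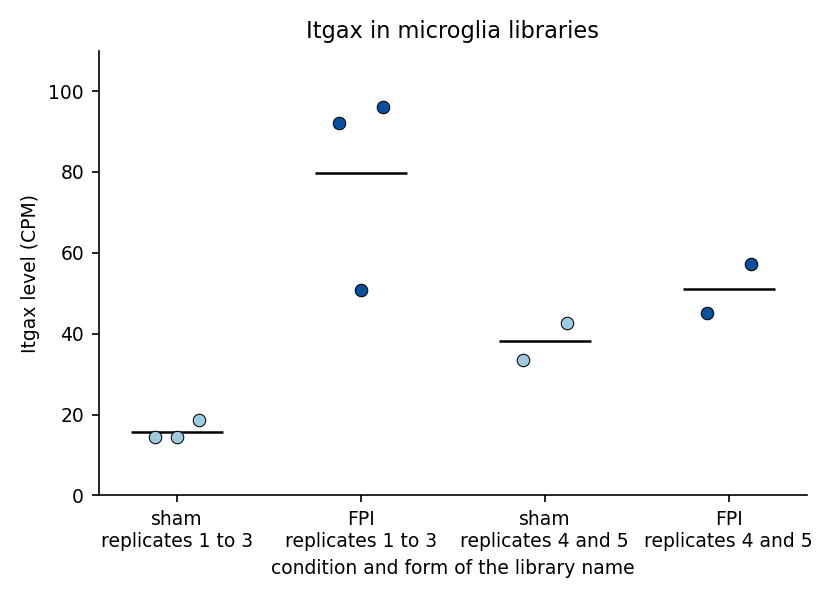
*Itgax* in CPM in each microglia library, by condition and by form of the library name (libraries 1 to 3, and libraries 4 and 5 named J-A); points are libraries and lines are means. Sham and FPI lie far apart in libraries 1 to 3 and close together in libraries 4 and 5.

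*Itgax* was nearly absent from astrocytes, with 4 counts over the 5 sham and 15 over the 5 FPI libraries. The difference in its FPI effect between the cell types, microglia minus astrocytes, was -0.40 (SE 0.99, 95% interval -2.34 to 1.53, edgeR adjusted p = 0.9998), so an effect limited to microglia is not shown. The estimate is unstable: it ran from -3.21 to 0.69 with 1 library left out and from -3.51 to -0.18 over the alternatives.

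Within microglia, *Itgax* made up a small part of the α chains that pair with β2. As a share of the summed RPKM of *Itgam*, *Itgax*, *Itgal* and *Itgad* it was 0.894, 0.898, 1.12, 2.27 and 2.76% in sham libraries 1 to 5 and 5.03, 2.49, 6.12, 2.72 and 2.76% in FPI libraries 1 to 5. The groups overlapped among the J-A libraries and FPI library 2, and the means were 1.59% ± 0.869 and 3.82% ± 1.65 (SD, n = 5). The summed α chains stood at 1.77 ± 0.141 times the RPKM of *Itgb2* in sham and 1.75 ± 0.126 times in FPI microglia.

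Markers of other cells that carry CD11c or that the gate could admit were read in the same libraries. The 6 dendritic cell markers summed to 11.7, 7.97, 11.9, 6.12 and 1.70 CPM in sham and 10.1, 7.85, 12.4, 9.23 and 6.01 CPM in FPI microglia, with *Zbtb46* the most abundant and *Ccr7* at 0 in FPI. Those sums overlapped between the conditions. The 7 markers of border-associated macrophages summed to 466, 306, 455, 24.6 and 18.3 CPM in sham and 275, 198, 146, 25.1 and 59.6 CPM in FPI microglia, led by *Mrc1*, with none at 0. They were low in the J-A libraries of both conditions. All 7 were tested, and edgeR and DESeq2 called 0 of them between FPI and sham, with a median log2 fold change of -0.73. At an unadjusted p below 0.05 in edgeR was 1 of the 7, beside 1377 of all 12143 tested genes.

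Blood cell markers were scarce in microglia. The 6 monocyte markers summed to 5.24 ± 2.72 CPM (SD, n = 5) in sham and 6.29 ± 5.06 in FPI microglia, led by *Ccr2*, with *Ly6c2* at 0 in both and *S100a4* at 0 in FPI. The 11 T and NK cell markers summed to 3.79 ± 2.94 and 1.43 ± 1.54 CPM, led by *Cd4*, with *Cd3e*, *Cd3g*, *Cd8a*, *Nkg7* and *Gzmb* at 0 in both, *Trbc2* in sham, and *Cd3d*, *Gzma* and *Ncr1* in FPI. The 7 neutrophil markers summed to 8.28 ± 8.08 and 6.05 ± 7.99 CPM led by *Ngp* in sham and *S100a9* in FPI, with *Ly6g* at 0 in both and *Retnlg* at 0 in FPI, and the B cell markers *Cd79a* and *Ms4a1* were at 0 throughout. Of each of the dendritic, monocyte, T and NK and neutrophil lists 1 gene could be tested between FPI and sham, and edgeR and DESeq2 called 0 of them, with 0 at an unadjusted p below 0.05 in edgeR.

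Markers of other brain cells moved in the same comparison. Of the 12 astrocyte markers all 12 had log2 fold changes above 0 in FPI microglia (median 0.66). Where 1377 of all 12143 tested genes had an unadjusted p below 0.05, 5 of these 12 markers did. *Gfap* was the 1 marker called (2.78, edgeR adjusted p = 0.00772). *Slc1a3* led the list in sham and *Slc1a2* in FPI. Their sum was 365, 283, 352, 386 and 256 CPM in sham and 639, 655, 394, 322 and 306 CPM in FPI microglia, so FPI libraries 1 and 2 were highest and FPI libraries 4 and 5 lay within the sham range. Of the oligodendrocyte markers 7 of 8 were tested and 3 had an unadjusted p below 0.05, with a median log2 fold change of 0.59 and sums of 173 ± 22.03 and 233 ± 42.9 CPM, and of the oligodendrocyte precursor markers 4 of 8 were tested and 2 had an unadjusted p below 0.05, 1 in each direction: *Cspg4*, which was called (2.29, edgeR adjusted p = 0.0349), and *Pdgfra* (-1.66), which was not, with sums of 13.3 ± 1.16 and 20.8 ± 6.48 CPM. None of these lists had a gene at 0. Of the endothelial (7 of 8 tested), mural (5 of 6) and neuronal (1 of 8) markers edgeR and DESeq2 called 0, with 1, 0 and 0 at an unadjusted p below 0.05 in edgeR, and their sums were 71.8 and 68.4, 19.7 and 24.2, and 6.08 and 5.42 CPM in sham and FPI. The 13 microglial markers had a median log2 fold change of -0.08, 5 at an unadjusted p below 0.05, all lower after FPI, and 0 called by edgeR or DESeq2. The part of any of these cells in the *Itgax* result was not tested.

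The genes whose log2 CPM followed *Itgax* most closely over the 10 microglia libraries were *Pnpla7* (Pearson r 0.972), *Rassf3* (r 0.962) and *Daam1* (r 0.956). These libraries share the condition and the form of the name as well as the gene, and after the condition means were taken out r was 0.951, 0.890 and 0.885. *Rassf3* was called higher after FPI (log2 fold change 0.92, edgeR adjusted p = 0.00484), and *Pnpla7* (0.37, edgeR adjusted p = 0.194) and *Daam1* (0.39, edgeR adjusted p = 0.218) were not.

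*Itgam* held a high level in microglia of both conditions. It stood at 1664, 1655, 1710.3, 1508 and 1574 CPM in sham and 1816, 2078, 1536, 1685 and 2105 CPM in FPI microglia. FPI libraries 1, 2 and 5 lay above all sham libraries, FPI library 4 lay among them and FPI library 3 near the lowest. Between FPI and sham the log2 fold change was 0.20 (SE 0.12, 95% interval -0.04 to 0.44, edgeR adjusted p = 0.624). *Itgb2* (ENSMUSG00000000290, chr10:77530252-77565708, plus strand), the β chain without which CD11b does not reach the surface, ranged from 516 to 619 CPM in sham and from 576 to 807 CPM in FPI microglia, with a log2 fold change of 0.24 (SE 0.12, 95% interval 0.00 to 0.48, edgeR adjusted p = 0.486). Such intervals are approximate: that of *Itgb2* starts at 0.0013, while its unadjusted p in edgeR was 0.063. Neither interval reaches the threshold of 0.6, so a change of that size in either gene lies outside them.

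*Itgal*, the α chain of LFA-1 and a marker of lymphocytes and monocytes, was near the limit of detection. It had 0, 94, 6, 8 and 6 counts in sham and 56, 56, 25, 6 and 28 counts in FPI microglia, or 0 to 6.87 and 0.923 to 6.98 CPM. Sham library 2 alone was high in its group, and FPI library 4 was as low as the other sham libraries. Its log2 fold change was 1.14 (SE 0.82, 95% interval -0.46 to 2.74, edgeR adjusted p = 0.716), and 2.64 without sham library 2 (edgeR adjusted p = 0.238), not called either way.

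In astrocytes *Itgam* was rare but higher in FPI libraries. It had 14, 0, 0, 2 and 5 counts in sham astrocytes 1 to 5 (1.86, 0, 0, 0.205 and 0.631 CPM) and 112, 72, 13, 20 and 55 counts in FPI astrocytes 1 to 5 (11.5, 9.001, 1.62, 2.34 and 8.77 CPM). FPI libraries 1, 2 and 5 lay above all sham libraries by a wide margin, FPI library 4 just above them, and FPI library 3 below sham library 1. The log2 fold change was 3.72 (SE 0.99, 95% interval 1.78 to 5.67, unadjusted p = 0.00264), and it was not called in edgeR (adjusted p = 0.9994). Without FPI astrocyte library 5 it was 3.57 (edgeR adjusted p = 0.9997), with that library's counts summed with those of library 2 it was also 3.57 (edgeR adjusted p = 0.9997), and it was called in none of the 10 fits that left out 1 library (3.36 to 5.02). DESeq2 called it (3.71, adjusted p = 0.0267), as did the edgeR fit of all 20 libraries (3.77, adjusted p = 0.00882). Over the 8 alternatives the adjusted p ran from 0.00882 to 0.9997.

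The FPI effect on *Itgam* differed between the cell types. Of the 10 listed subunits 1, *Itgam*, passed an adjusted p below 0.1 for the difference, where 0.199% of all 15077 tested genes did (30 genes). The difference, microglia minus astrocytes, was -3.58 (SE 0.78, 95% interval -5.12 to -2.05, edgeR adjusted p = 0.0896), rank 27 by p. In fits without 1 library it was called in 3 of 20: without sham astrocyte library 1 (-4.92, edgeR adjusted p = 0.0113), without FPI astrocyte library 3 (-3.85, edgeR adjusted p = 0.0204) and without FPI astrocyte library 4 (-3.84, edgeR adjusted p = 0.0465). Without any 1 of the 10 microglia libraries, sham astrocyte libraries 2 to 5 or FPI astrocyte libraries 1, 2 and 5 the call was lost, with differences of -3.72 to -3.23 and edgeR adjusted p of 0.111 to 0.177. Without FPI astrocyte library 5 the value was -3.50 (edgeR adjusted p = 0.156). It was called in all 5 alternatives that kept the gene, with adjusted p of 0.00245 to 0.0939. *Itgb2* had 13 counts over sham and 99 over FPI astrocytes, and its difference was -2.92 (SE 1.00, edgeR adjusted p = 0.470), not called. Neither were the other 8 listed subunits called.

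Microglial markers were read in the same astrocyte libraries. Of the 13 microglial markers 9 could be tested there, and all 9 had log2 fold changes above 0 after FPI (median 1.77). The filter on low counts keeps a gene with enough counts in either condition alone. Markers near 0 in sham could thus enter only where FPI was high, so their direction, median and counts are partly set by the filter. Where 319 of all 13741 tested genes had an unadjusted p below 0.05, 6 of these 9 markers did. For 3 the FPI libraries did not overlap with the sham libraries, beside 0.713% of all tested genes. Of the microglial markers edgeR called 0, while DESeq2 called 4 (*Cx3cr1*, *Csf1r*, *C1qa* and *Fcrls*), beside 39 genes in all. *Cx3cr1* had a log2 fold change of 3.34 (edgeR adjusted p = 0.215), *C1qa* 4.71 (edgeR adjusted p = 0.429) and *Csf1r* 2.96 (edgeR adjusted p = 0.9994), all with FPI astrocyte library 5 included. The summed list was 188, 150, 108, 135 and 124 CPM in sham and 271, 239, 160, 141 and 255 CPM in FPI astrocytes, with FPI libraries 1, 2 and 5 highest, the same libraries as for *Itgam*. *Sall1*, the most abundant, moved by 0.08, and no marker of the list was at 0 in either group. The difference in FPI effect between the cell types was below 0 for 13 of 13 microglial markers (median -1.61), and edgeR called 2, *Cx3cr1* (-3.66, adjusted p = 0.00518) and *C1qa* (-4.59, adjusted p = 0.0214), beside 0.199% of all tested genes. DESeq2 called 8 of the 13, all lower, beside 190 genes in all.

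The other marker lists were read in astrocytes in the same way, where 319 of all 13741 tested genes had an unadjusted p below 0.05 in edgeR. Of the 12 astrocyte markers edgeR called 0 (median log2 fold change -0.29, 1 at an unadjusted p below 0.05) and DESeq2 1, *Gfap*, whose log2 fold change was 1.98 (edgeR adjusted p = 0.151). Of the 8 oligodendrocyte precursor markers edgeR called 0, as did DESeq2 of the 6 to which it gave an adjusted p, with 3 at an unadjusted p below 0.05 in edgeR, *Gpr17* (4.14), *Tnr* (2.88) and *Pdgfra* (1.47), and a median of 0.52, and their sum was 735 ± 374 CPM in sham and 1019 ± 421 in FPI. The size of these fold changes rests on FPI astrocyte library 5, which held 202 CPM of *Gpr17*, 125 of *Tnr* and 97.1 of *Pdgfra*, where the other FPI libraries held 8.58 to 20.002, 16.2 to 24.4 and 15.8 to 36.6 CPM. Sham libraries held 0.609 to 4.92, 3.48 to 10.3 and 4.77 to 24.98 CPM. Of 8 oligodendrocyte, 7 neuronal, 8 endothelial and 6 mural markers tested both tools called 0, with 0 at an unadjusted p below 0.05 in edgeR and medians of 0.05, -0.10, 0.098 and 0.28. Of the border macrophage and dendritic lists 1 gene each could be tested and was not called, and of the monocyte, T and NK, neutrophil and B cell lists none passed the filter.

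Set against microglia of the same condition, the amounts were small. The astrocyte libraries held 0.0332% of the microglial *Itgam* level in sham and 0.361% in FPI, 0.0505 and 0.413% of *Itgb2*, 0.0195 and 0.259% of *Cx3cr1*, 0.0347 and 0.267% of *Csf1r*, and 0.134 and 0.357% of *P2ry12*. For *Tmem119* the shares were 0.0744 and 0.218%. In FPI these shares lay close together, though the libraries of each gene spread widely. The part of microglial RNA in the *Itgam* counts of the astrocyte libraries was not tested.

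**Figure D5:**
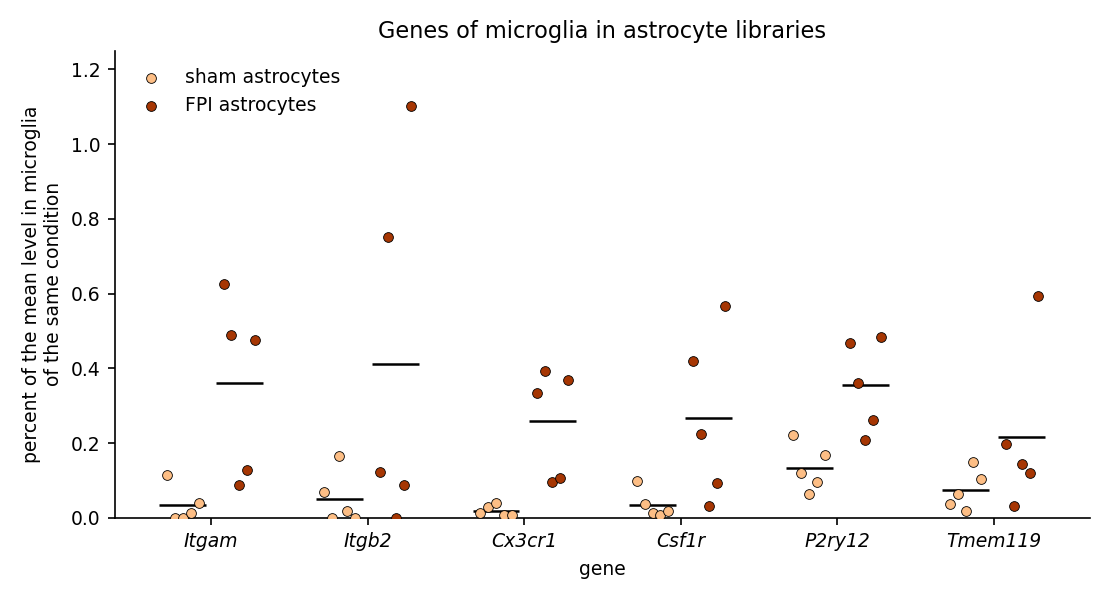
Level of 6 microglial genes in each astrocyte library, as a percentage of the mean of microglia of the same condition; points are libraries. The FPI means lie above the sham means, with 1 FPI library at 0 for *Itgb2*, and the points stay near or below 1.1% for all 6.

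The αv chain, *Itgav* (ENSMUSG00000027087, chr2:83724397-83806916, plus strand), binds ligands with an RGD motif and takes its specificity from its β partner. It ranged from 326 to 413 CPM in sham and 296 to 374 CPM in FPI microglia, and from 296 to 481 CPM in sham and 251 to 411 CPM in FPI astrocytes. All 4 groups overlapped, and FPI moved it by -0.11 (SE 0.12, edgeR adjusted p = 0.837) in microglia and by -0.21 (SE 0.20, edgeR adjusted p = 0.9994) in astrocytes, or by -0.20 without FPI astrocyte library 5. In microglia it was -0.28 within libraries 1 to 3 and 0.12 within libraries 4 and 5, not called in either. Its β partners set the cell types apart instead.

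*Itgb5* (ENSMUSG00000022817, chr16:33829665-33949338, plus strand) encodes the β chain of the vitronectin receptor αvβ5. It stood at 1963, 2041, 1787, 1998 and 2287 CPM in sham and 2314, 2127, 2079, 2079 and 2492 CPM in FPI microglia. The groups overlapped, with sham library 5 among the FPI libraries, and the log2 fold change was 0.16 (SE 0.12, 95% interval -0.08 to 0.39, edgeR adjusted p = 0.736). In astrocytes it ranged from 148 to 231 CPM in sham and 160 to 218 CPM in FPI, with a log2 fold change of -0.04 (SE 0.17, edgeR adjusted p = 0.9994), or -0.12 without FPI astrocyte library 5.

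*Itgb3* (ENSMUSG00000020689, chr11:104608000-104670476, plus strand), the β chain of αvβ3 and of the platelet fibrinogen receptor, ranged from 125 to 154 CPM in sham and from 107 to 137 CPM in FPI microglia. FPI libraries 1 to 4 lay below all sham libraries and FPI library 5 among them, and the log2 fold change was -0.18 (SE 0.12, 95% interval -0.42 to 0.06, edgeR adjusted p = 0.674). In astrocytes it lay between 1.23 and 8.79 CPM, with a log2 fold change of -0.05 (SE 0.60), or 0.13 without FPI astrocyte library 5, not called either way.

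*Itgb8* (ENSMUSG00000025321, chr12:119158022-119238802, minus strand) encodes the β chain that presents latent TGF-β. It stood at 384, 285, 316, 246 and 219 CPM in sham and 371, 259, 269, 193 and 173 CPM in FPI astrocytes, against 0.756 to 6.69 CPM over the 10 microglia libraries. Sham and FPI astrocytes overlapped, and in both conditions libraries 4 and 5 held the lowest values. The log2 fold change after FPI was -0.16 (SE 0.24, 95% interval -0.63 to 0.30, edgeR adjusted p = 0.9994) in astrocytes, or -0.0817 without FPI astrocyte library 5. In microglia it was 0.34 (SE 0.67, edgeR adjusted p = 0.925), resting on 117 counts in sham and 127 in FPI, and its direction turned from 1.36 within libraries 1 to 3 to -1.565 within libraries 4 and 5, not called in either.

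Set side by side per length, the β chains that can pair with αv differed in make-up between the cell types. As shares of their summed RPKM in sham microglia, *Itgb5* made up 85.0% ± 2.39, *Itgb1* 11.5% ± 2.22, *Itgb3* 3.50% ± 0.233 and *Itgb8* 0.0345% ± 0.0334 (SD, n = 5). In sham astrocytes the shares were 43.8% ± 6.21 for *Itgb5*, 35.2% ± 9.70 for *Itgb1*, 20.5% ± 4.87 for *Itgb8* and 0.554% ± 0.362 for *Itgb3*. After FPI, microglia had 86.6% *Itgb5*, 10.5% *Itgb1*, 2.81% *Itgb3* and 0.0401% *Itgb8*, and astrocytes 41.2% *Itgb5*, 40.1% *Itgb1*, 18.2% *Itgb8* and 0.530% *Itgb3*. The *Itgb3* share in microglia was 3.89, 3.39, 3.48, 3.46 and 3.27% in sham and 2.80, 2.68, 2.76, 2.97 and 2.85% in FPI libraries, with no overlap. That separation was noticed after the values were seen and was not tested, and *Itgb3* itself was not called. The summed β chains stood at 19.9 ± 2.58 times the RPKM of *Itgav* in sham microglia and 3.82 ± 0.888 times in sham astrocytes, and at 23.4 ± 2.06 and 4.63 ± 1.247 times after FPI. Since *Itgb1* also pairs with many other α chains, these shares describe transcripts and not receptors.

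*Itgb1* (ENSMUSG00000025809, chr8:128685654-128733200, plus strand), the β chain of most receptors for laminin, collagen and fibronectin, was expressed in both cell types. It stood at 374, 313, 339, 264 and 260 CPM in sham and 290, 351, 223, 312 and 374 CPM in FPI microglia. The groups covered nearly the same range, and the log2 fold change was 0.02 (SE 0.15, 95% interval -0.28 to 0.31, edgeR adjusted p = 0.987). It was -0.26 within libraries 1 to 3 and 0.44 within libraries 4 and 5, not called in either. In astrocytes it stood at 136, 166, 140, 222 and 266 CPM in sham and 137, 203, 181, 224 and 355 CPM in FPI. Libraries 4 and 5 held the highest values in both conditions, and the log2 fold change was 0.27 (SE 0.27, edgeR adjusted p = 0.9994), or 0.01 without FPI astrocyte library 5 (edgeR adjusted p = 0.9997).

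*Itgb1* was called higher in microglia by a narrow margin, with a log2 fold change of 0.62 (SE 0.16, 95% interval 0.30 to 0.94, edgeR adjusted p = 0.00194) and overlapping libraries. It fell short of 0.6 in DESeq2 (0.53), with DESeq2's size factors in edgeR (0.53) and with the filter of 10 counts in every library (0.48), the adjusted p over its 7 alternatives running from 0.000433 to 0.0119. It also fell short without FPI microglia library 2 (0.59), 4 (0.59) or 5 (0.58), without sham astrocyte library 1 (0.54) and without FPI astrocyte library 1 (0.55), and it ranged from 0.61 to 0.78 in the other 15 such fits.

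*Itga6* (ENSMUSG00000027111, chr2:71745616-71858416, plus strand), the laminin receptor α chain, stood at 588, 528, 542, 560 and 559 CPM in sham and 541, 571, 514, 588 and 684 CPM in FPI microglia. The log2 fold change was 0.08 (SE 0.12, 95% interval -0.15 to 0.31, edgeR adjusted p = 0.895), with FPI library 3 below and FPI library 5 above the sham range. It was -0.0459 within libraries 1 to 3 and 0.23 within libraries 4 and 5, not called in either. In astrocytes it stood at 172, 181, 176, 67.5 and 87.3 CPM in sham and 184, 141, 139, 91.3 and 86.6 CPM in FPI. Libraries 4 and 5 of both conditions lay below all others, and the log2 fold change was -0.06 (SE 0.31, edgeR adjusted p = 0.9994), or 0.03 without FPI astrocyte library 5 (edgeR adjusted p = 0.9997). The summed astrocyte markers were also lower in libraries 4 and 5, at 36540, 29737, 29542, 11660 and 17978 CPM in sham and 35973, 23597, 23069, 13457 and 17460 CPM in FPI astrocytes. Their part in the *Itga6* and *Itgb8* values was not tested.

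Of the other integrin subunits, 7 of 17 could be tested in microglia and 11 in astrocytes, and edgeR and DESeq2 called 0 in both, with 2 and 1 at an unadjusted p below 0.05 in edgeR. Over all tested genes edgeR called 2.35% of 12143 in microglia and 0.00728% of 13741 in astrocytes. Those at an unadjusted p below 0.05 in edgeR were 1377 and 319. *Itga9*, an α chain for tenascin, osteopontin and VCAM1, stood at 212, 281, 207, 247 and 207 CPM in sham and 133, 161, 208, 173 and 142 CPM in FPI microglia. FPI library 3 lay among the sham libraries and the other 4 below all of them. The log2 fold change was -0.49 (SE 0.13, 95% interval -0.73 to -0.24, edgeR adjusted p = 0.0546), which passes the threshold on p but not that on size, and it ran from -0.50 to -0.47 over 10 alternatives with adjusted p of 0.00961 to 0.668. In astrocytes *Itga9* had 122 counts in sham and 150 in FPI, and the difference in its FPI effect between the cell types was -1.06 (SE 0.51, edgeR adjusted p = 0.706).

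*Itga5*, the α chain of the fibronectin receptor, was higher in FPI libraries of both cell types without being called. In microglia it stood at 30.4, 36.8, 29.7, 28.2 and 47.3 CPM in sham and 52.7, 41.1, 57.6, 47.7 and 38.1 CPM in FPI. Sham library 5 lay among the FPI libraries and the other 4 below all of them. Its log2 fold change was 0.48 (SE 0.18, edgeR adjusted p = 0.234), and without sham library 5 it was 0.61 and called (edgeR adjusted p = 0.0912). In astrocytes it stood at 6.36, 5.13, 6.47, 6.66 and 5.55 CPM in sham and 11.6, 8.50, 8.83, 10.7 and 10.1 CPM in FPI. There all 5 FPI libraries exceeded all 5 sham libraries, and the log2 fold change was 0.75 (SE 0.22, 95% interval 0.32 to 1.17, unadjusted p = 0.00463, edgeR adjusted p = 0.9994), or 0.72 without FPI astrocyte library 5 (edgeR adjusted p = 0.9997). The difference between the cell types was -0.26 (SE 0.25, not called by edgeR).

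Ligands of these integrins were read from a list of 39 genes. In microglia 30 were tested, edgeR called 4 higher and 0 lower, beside 2.13% of all tested genes called higher, and the median log2 fold change was 0.25. The 4 were *C3*, *Spp1*, *Fn1* and *Vcam1*, and DESeq2 called the same 4. *C3*, whose fragment iC3b is bound by αMβ2 and αXβ2, stood at 9.98, 3.44, 5.26, 0.793 and 6.43 CPM in sham and 84.9, 117, 25.9, 23.2 and 45.4 CPM in FPI microglia. All FPI values exceeded all sham values, and *C3* rose by a log2 fold change of 3.55 (SE 0.50, 95% interval 2.58 to 4.53, edgeR adjusted p = 0.000333), with values of 3.16 to 3.97 in the fits that left out 1 library, called in all 10.

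*Spp1*, which encodes osteopontin, stood at 3.87, 4.68, 3.91, 4.76 and 30.4 CPM in sham and 202, 155, 20.2, 22.1 and 80.6 CPM in FPI microglia. FPI libraries 3 and 4 lay below sham library 5 and above the other sham libraries. It rose by 3.45 on the log2 scale (SE 0.65, edgeR adjusted p = 0.00546) and by 1.64 within libraries 4 and 5 (edgeR adjusted p = 0.318), not called there. *Fn1*, which encodes fibronectin, stood at 15.3, 26.2, 39.3, 26.9 and 16.3 CPM in sham and 141, 169, 47.3, 31.2 and 51.9 CPM in FPI microglia. FPI library 4 lay below sham library 3. Its log2 fold change was 1.84 (SE 0.37, edgeR adjusted p = 0.00959), 1.00 within libraries 4 and 5 (edgeR adjusted p = 0.239) and 1.82 in the fit of all 20 libraries (edgeR adjusted p = 0.172), where it was not called. Over the alternatives the adjusted p ran from 2.26e-13 to 0.318 for *Spp1* and from 2.02e-09 to 0.239 for *Fn1*.

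*Vcam1*, a ligand of α4β1 and α9β1, stood at 7.98, 11.8, 12.6, 11.7 and 3.78 CPM in sham and 23.8, 22.1, 15.4, 16.0 and 18.2 CPM in FPI microglia. All FPI libraries were above the highest sham library, and the log2 fold change was 1.00 (SE 0.28, edgeR adjusted p = 0.0819). Of the fits that left out 1 library it was called in 1, without FPI microglia library 3 (1.08, edgeR adjusted p = 0.0549). Without any other library the call was lost, at 0.81 to 1.12 with edgeR adjusted p of 0.1003 to 0.224. It was called in 5 of 10 alternatives, with adjusted p of 0.0255 to 0.351.

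In astrocytes 35 of the 39 ligands were tested and edgeR called 0, with 4 at an unadjusted p below 0.05 and a median of 0.27, while DESeq2 called 1, *C3*. Over all 13741 tested genes edgeR called 0.00728%, and 319 had an unadjusted p below 0.05 there. *C3* stood at 1.19, 7.22, 5.22, 3.38 and 2.27 CPM in sham and 11.8, 43.3, 16.5, 7.73 and 31.4 CPM in FPI astrocytes. All FPI libraries lay above all sham libraries, and the log2 fold change was 2.53 (SE 0.54, edgeR adjusted p = 0.558; DESeq2 adjusted p = 0.00153), or 2.34 without FPI astrocyte library 5 (edgeR adjusted p = 0.9997). Over the 8 alternatives the adjusted p ran from 0.00153 to 0.9997. *Spp1* (1.399) and *Icam1* (1.92), a ligand of LFA-1 and αMβ2, had unadjusted p of 0.00974 and 0.0157 in edgeR and were not called. Without FPI astrocyte library 5 *Spp1* was at 1.065 and *Icam1* at 1.18, not called. Between the cell types 8 of 36 ligands were called higher in microglia and 25 in astrocytes, beside 27.1% and 37.2% of all tested genes. When the FPI effects of the cell types were compared, edgeR and DESeq2 called 0 of 36. At an unadjusted p below 0.05 in edgeR were 5 of the 36, beside 1058 of all 15077 tested genes.

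Adaptors that link integrin tails to actin or carry their signals were read from a list of 32 genes. In microglia 27 were tested and edgeR and DESeq2 called 0, with 2 at an unadjusted p below 0.05 in edgeR and a median of -0.03. Over all 12143 tested genes edgeR called 2.35%, and 1377 had an unadjusted p below 0.05. The adaptors of smallest p were *Tyrobp* (0.34, edgeR adjusted p = 0.308), the DAP12 adaptor, *Pxn* (-0.26, edgeR adjusted p = 0.415), which encodes paxillin, and *Fyb* (0.24, edgeR adjusted p = 0.485). In astrocytes 27 were tested and both tools called 0, with 1 at an unadjusted p below 0.05 in edgeR and a median of 0.10. Over all 13741 tested genes edgeR called 0.00728%, and 319 had an unadjusted p below 0.05. Among the adaptors *Syk* (1.19), *Fyb* (1.31) and *Cib1* (0.55) had the smallest p. Without FPI astrocyte library 5 they were at 0.92 (*Syk*), 1.26 (*Fyb*) and 0.58 (*Cib1*). Between the cell types 15 of 30 were called higher in microglia and 9 in astrocytes, beside 27.1% and 37.2% of all tested genes. When the FPI effects of the cell types were compared, edgeR called 1 of 30, *Parvg*, with a lower effect in microglia, and DESeq2 called 3, *Parvg*, *Fermt3* and *Syk*, beside 30 (0.199%) and 190 of all tested genes.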

How the data were processed

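RNA of sorted microglia and astrocytes was sequenced in 20 libraries. Per the labels, the authors demultiplexed with bcl2fastq, aligned to mm10 with HISAT2 2.1.0 and counted reads per gene with featureCounts; the strand setting of the counting is not given in the sources used here. The deposited values are raw counts of 39017 identifiers, of which 37693 are in GENCODE M21 and hold 99.83% of the counts. Totals per library ran from 5623349 to 13110857.

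Counts were filtered with filterByExpr, scaled by TMM and fitted with edgeR 4.0.16 (quasi-likelihood; R 4.3.3, limma 3.58.1), by condition within each cell type and, for the cell type difference and the difference in FPI effect, by group over 20 libraries. Adjusted p is Benjamini-Hochberg over all tested genes. A gene is called at an adjusted p below 0.1 and an absolute log2 fold change above 0.6, and for the difference in FPI effect on p alone. Intervals are 95%. Lists were made of ligands, adaptors, other integrin subunits and markers of 13 cell types. The 10 members and these lists were chosen with earlier results of these data known.

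Genes named are the 10 listed subunits in every comparison; every other integrin subunit passing the filter; of the ligand and adaptor lists in each cell type the called genes, up to 5 per direction by smallest p, or where fewer than 3 are called the 3 of smallest p; the 3 genes most correlated with each listed subunit called in FPI microglia; and of each marker list the most abundant gene and those at 0. Some genes of the marker lists are not reported here.

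Alternatives were DESeq2 1.42.0, its size factors (RLE) in edgeR, filters of at least 1 count or of 10 counts in every library, each library left out, a block of replicate numbers, a term for the name form or libraries 1 to 3 and 4 to 5 of microglia alone, FPI astrocyte libraries 2 and 5 summed, a fit of all 20 libraries, sham libraries only, leaving out the astrocyte libraries of the 3 animals with both cell types, and a stricter threshold. A term for astrocyte replicates 4 and 5 was chosen after seeing the data. Tables and figures used Python 3.11.15, pandas 2.3.3, numpy 2.4.6 and matplotlib 3.10.9, and the fits were tested on simulated data.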

Additional observations from a re-analysis of the deposited data

Results flagged for a closer look

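Among 88 groups of 5 libraries, each a subunit in a cell type and condition, 7 held a library far from the other 4 by Dixon's ratio at the 5% level, which chance alone reaches in about 1 in 20 groups. *Itgax* was 0.5046 CPM (4 counts) in sham astrocyte library 5 and 0 in the other 4. *Itgal* was 6.871 CPM (94 counts) in sham microglia library 2, where the next library had 1.13, and 1.75 CPM (14 counts) in FPI astrocyte library 2, where the next had 0.373. *Itgb8* was 6.687 CPM (59 counts) in sham microglia library 4, where the next had 2.12. *Itga2* was 0.4811 CPM (4 counts) in FPI microglia library 3, far above the other 4. *Itga7* was 1.813 CPM (16 counts) in sham microglia library 4, where the next had 0.365. *Itga8* was 2.098 CPM (18 counts) in FPI microglia library 1 and 0 in the other 4.

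The effect of FPI on *Itgam* differed between the cell types past the threshold on adjusted p, by -3.583 on the log2 scale in edgeR, microglia minus astrocytes (adjusted p = 0.0896). The call was lost in 17 of the 20 fits that left out 1 library. In the same astrocyte libraries all 9 microglial markers tested had log2 fold changes above 0, of which edgeR called 0. That direction is partly set by the filter on low counts, which a marker could pass through FPI libraries alone.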

How the results depend on the processing

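Of the values compared with an alternative, 1440 kept direction and side of the threshold, 49 reversed, 44 became weaker and 5 stronger. Depth limits *Itgal* in both cell types, *Itgax*, *Itgb2* and *Itgam* in astrocytes and *Itgb8* in microglia. Replicate numbers do not pair the libraries by the labels or by the rule that every same-numbered pair correlate above 0.1, so the replicate block is an alternative only. In microglia the correlations ran from -0.066 to 0.092, and 2 of 5 numbers matched their own number best. In astrocytes that of number 2 was -0.009 and the other 4 ran from 0.245 to 0.452, with 3 of 5 matching their own number best, a hint from the data and not the design.

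In microglia 285 genes were called between FPI and sham, 108 at the stricter threshold, 99 in replicates 4 and 5 alone and 121 in the fit of all 20 libraries; the last 2 called 0 listed subunits. With 1 library left out, 177 to 423 genes and 1 to 1 listed subunits were called. Signs turned for *Itgb1* (-0.26) and *Itga6* (-0.0459) in replicates 1 to 3 alone and for *Itgav* (0.12), *Itgb8* (-1.565) and *Fyb* (-0.0389) in replicates 4 and 5 alone. With 1 library left out *Itgb1* ran from -0.0817 to 0.12, *Itgb8* from -0.0476 to 1.09 and *Itga6* from -0.0113 to 0.13. The cause was not tested.

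In astrocytes 1 gene was called, 0 at the stricter threshold, 39 with DESeq2, 9 with every gene of at least 1 count, 0 with at least 10 counts in every library, 11 with the replicate block, 0 with FPI astrocyte libraries 2 and 5 summed, 53 in the fit of all 20 libraries and 6 with the term for replicates 4 and 5. DESeq2 and the fit of all 20 libraries each called 1 listed subunit. With 1 library left out, 0 to 3 genes and 0 to 0 listed subunits were called. *Itgb3* turned to 0.0478 with the summed libraries and 0.0249 with the term. With 1 library left out *Itga6* ran from -0.25 to 0.0541, *Itgb5* from -0.14 to 0.00021 and *Itgb3* from -0.58 to 0.30. The cause was not tested.

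Between the cell types 9683 genes were called, and 4515 with 3 listed subunits with at least 10 counts in every library, where fewer genes were tested. *Itgav* turned to -0.0775 with DESeq2, -0.0773 with RLE factors, -0.13 with at least 10 counts in every library and -0.0627 without the astrocyte libraries of the 3 animals with both; *Itga2b* to 0.30 in sham libraries only and 0.14 without those astrocyte libraries, where *Itga10* was 0.36. With 1 library left out, 9808 to 9957 genes and 8 to 9 listed subunits were called, *Itga10* ran from -0.37 to 0.15 and *Itgav* from -0.0384 to 0.0670. The cause was not tested.

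The difference in the FPI effect was called for 30 genes, 190 with DESeq2, 1 and 0 listed subunits with at least 10 counts in every library, 114 with the replicate block and 69 without the astrocyte libraries of the 3 animals; *Itgal* turned to 0.71 with the block. With 1 library left out, 21 to 48 genes and 0 to 1 listed subunits were called, *Itgal* ran from -0.86 to 1.06, *Itgav* from -0.0157 to 0.23, *Itgb3* from -0.52 to 0.36 and *Itgax* from -3.21 to 0.69. The cause was not tested.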
